A study of Homo sapiens with 6 samples.

Results

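The proteasome is the protease complex that degrades ubiquitin-tagged proteins in the cytosol and nucleus. Its genes were taken here as every gene symbol of the form PSMA to PSMG followed by a number, which gave 48 of the 23591 genes in the table. The set holds 8 genes of the alpha ring (PSMA), 8 of the beta ring (PSMB) outside the immunoproteasome, the 3 immunoproteasome genes PSMB8, PSMB9 and PSMB10, 6 ATPase genes (PSMC), 14 lid and base genes (PSMD), 4 activator genes (PSME), the inhibitor gene PSMF1 and 4 assembly chaperone genes (PSMG). The names carry no measured value, so the choice of members did not use any expression level.

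Expression was measured in total RNA from H1 cells, an established line of human embryonic stem cells, grown on Matrigel in serum-free TeSR-E8 medium. The first group was wild type, with 3 libraries. The second group carried the genotype HEB KO, a knockout of HEB, the E protein transcription factor encoded by TCF12, also with 3 libraries, and all other labels were shared by both groups. The labels do not say how the knockout was made, how many clones it came from or whether replicates were separate cultures, so the p-values reflect nothing beyond the spread of these 6 libraries, some of which may be technical. The deposited values were taken, from their range, to be FPKM (the fragment count scaled by transcript length and library size) as the authors made them.

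The core particle of the proteasome is a stack of outer alpha rings, which gate the entry, and inner beta rings, which hold the active sites. The regulatory particle caps it: a base of ATPases unfolds the substrate and a lid removes its ubiquitin chain. In cells exposed to interferon gamma the active subunits are exchanged for the immunoproteasome subunits, and the ring-shaped PSME1 and PSME2 activator can take the place of the regulatory particle. Embryonic stem cells have been studied for their high proteasome activity.

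TCF12 checked the labels: its wild type libraries 1, 2 and 3 held 44.2, 55.7 and 51.0 FPKM, those of the knockout 14.2, 6.69 and 8.28 FPKM in the same order, and it fell (log2 fold change -2.31 with SE 0.28, limma adjusted p = 0.0310). All 10 embryonic stem cell markers listed stood at 1 FPKM or more in every library, and the 6 blood and lymphoid markers below 1 FPKM in every library. That floor does not show equal levels. None of the 10 was called between the groups with all 6 libraries weighted equally. With limma weights estimated per library, described below, 2 were called higher in HEB KO and 1 lower, beside 6.53% and 7.95% of all genes tested. HEB KO library 1 stood apart from the rest. Its summed FPKM was 440703 against 635114 to 714875 in the other 5 libraries, and it had the most genes at 1 FPKM or more, 13961 against 12468 to 12865. Some markers of other cell types were also highest in that library. COL1A1 stood at 39.7 FPKM against 0.391 to 3.21 in the other 5, COL1A2 at 46.3 against 7.97 to 20.5, and GATA3 at 2.47 against at most 0.0407 FPKM. PDGFRB was highest there too, at 5.20 FPKM. Others of the same lists were not. TAGLN was highest in HEB KO library 2, at 168 FPKM against 32.3 in HEB KO library 1. KRT7 was highest in HEB KO library 3 (2.78 against 1.70) and THY1 in wild type library 3 (253 against 220). DCN, LUM and COL3A1 were at or near 0 in every library, and the part of such cells in the results was not tested. Depth in reads is unknown, because the table holds no counts.

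HEB KO library 1 also stood apart in the proteasome genes, and most of their log2 fold changes turned from negative to positive when it was left out. Of the 45 members that passed the filter (1 FPKM or more in no fewer than 3 libraries), none passed the test between HEB KO and wild type (limma, Benjamini-Hochberg adjusted p over all 12937 genes tested), where 0.240% of all genes tested were called. Nor was any member called without HEB KO library 1 (0.587% of all genes tested) or with quantile normalization (0.247%). At an unadjusted p under 0.05 there was 1 member, PSMG3, and 10.0% of all genes tested. The median log2 fold change of the 45 members was -0.16, beside -0.043 for all genes tested, and 16 members were above 0, beside 45.2% of all genes tested. With quantile normalization 24 were above 0, beside 47.4%. Without HEB KO library 1 they were 41, beside 45.6%. Without both libraries numbered 1, the median of the members was 0.17, 36 of 45 were above 0 beside 48.7% of all genes tested, and again none was called, where 3.71% of all genes tested were. Levels in a pool of cells cannot tell fewer expressing cells from less RNA per cell.

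**Figure D1:**
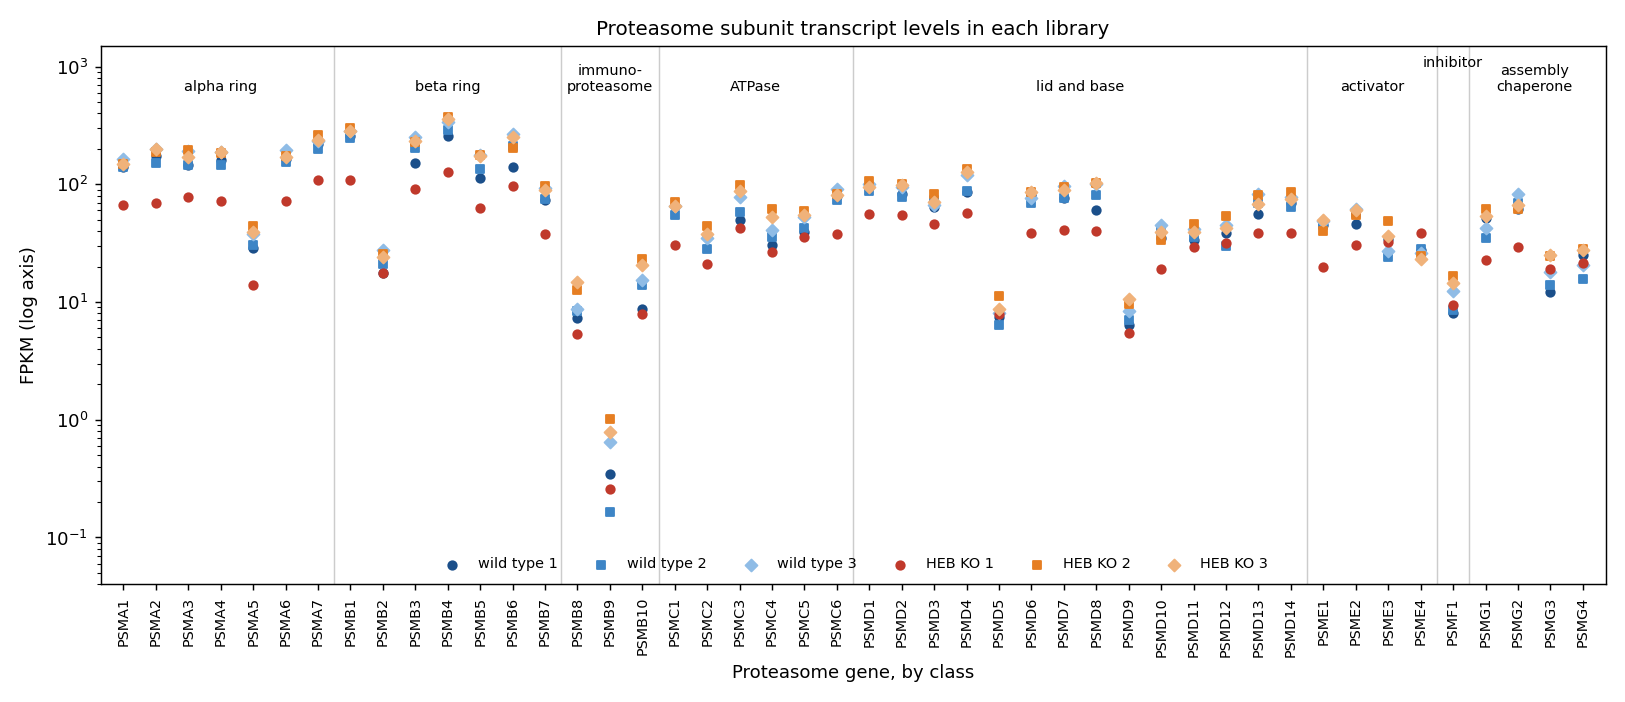
FPKM on a log axis for 46 proteasome genes in each of the 6 libraries, with 1 point per library and genes grouped by class. HEB KO library 1 is the lowest point for 38 of the 45 members that passed the filter, and the core subunits PSMA5 and PSMB2 lie below the other constitutive core subunits. PSMA8 and PSMB11, which are at or near 0, are not drawn.

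In each of the 6 libraries the alpha and beta rings had the highest class medians of the set, though not every core subunit exceeded every other member. The 7 tested alpha ring genes had means from 32.6 FPKM for PSMA5 to 211 FPKM for PSMA7, and the 7 tested beta ring genes from 22.3 FPKM for PSMB2 to 291 FPKM for PSMB4. The ATPase genes spanned 33.7 to 74.4 FPKM, the lid and base genes 7.90 to 102 FPKM and the activators 28.2 to 51.8 FPKM. Although each ring takes up its subunits in equal numbers, PSMA5 and PSMB2 transcripts stood well below those of their ring partners in every library. PSMA5 read 29.0, 30.6 and 37.9 FPKM in the wild type, against 14.0, 44.6 and 39.7 in the knockout. PSMB2 read 17.7, 21.1 and 27.7 FPKM in the wild type, against 17.7, 25.6 and 24.2 in the knockout. No other constitutive core member that passed the filter had a mean under 77.7 FPKM, the mean of PSMB7. FPKM divides by an annotated transcript length, and the annotation used by the authors is not given in the sources used here, so a level compared between genes also carries that choice. For 12 of the 48 members the GENCODE annotation holds a pseudogene named after them, and how reads shared with such copies were assigned is not known.

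The 3 members that did not pass the filter are genes of other tissues or states. PSMA8, the testis form of an alpha subunit, read at most 0.0345 FPKM. PSMB11, the beta subunit of cortical thymus epithelium, was listed at 0 in 5 libraries and at 0.0209 FPKM in wild type library 2. PSMB9 is described with the immunoproteasome.

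No alpha ring gene passed the test, and all 7 tested had their lowest value in HEB KO library 1. PSMA7, a gate ring subunit with the most abundant alpha transcript, read 221, 199.8 and 232 FPKM in the wild type, against 108, 263 and 240.0 in the knockout. HEB KO libraries 2 and 3 lay above all wild type libraries and HEB KO library 1 lay far below them. PSMA1 read 142, 139.9 and 165 FPKM in the wild type, against 66.6, 148 and 150.0 in the knockout (log2 fold change -0.38 with SE 0.36, limma adjusted p = 0.748). PSMA6 read 164, 154 and 197 FPKM in the wild type, against 72.3, 174 and 172 in the knockout (log2 fold change -0.40 with SE 0.38, limma adjusted p = 0.753). In both genes, HEB KO libraries 2 and 3 fell inside the wild type range. Without both libraries numbered 1 the log2 fold changes were -0.030 for PSMA1, -0.0083 for PSMA6 and 0.22 for PSMA7.

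The beta ring showed the same split between libraries. PSMB4, a structural beta subunit, read 255, 291 and 339 FPKM in the wild type, against 127, 371 and 360.4 in the knockout (log2 fold change -0.19 with SE 0.45, limma adjusted p = 0.911). PSMB1, another subunit without an active site, read 257, 249.7 and 286 FPKM in the wild type, against 108, 300.1 and 286 in the knockout. PSMB3 read 153, 204 and 254 FPKM in the wild type, against 91.0, 228 and 232 in the knockout. Here wild type library 1 was also the lowest of its group, as it was for 25 of the 45 members beside 32.4% of all genes tested. The catalytic subunits gave a like picture: PSMB5, the chymotrypsin-like subunit, read 114, 134 and 177 FPKM in the wild type, against 63.5, 177 and 173 in the knockout. PSMB6, the caspase-like subunit, read 142, 210.0 and 268 FPKM in the wild type, against 97.1, 203 and 250.2 in the knockout. PSMB7, the trypsin-like subunit, read 74.3, 74.7 and 92.7 FPKM in the wild type, against 37.9, 97.5 and 89.2 in the knockout. None of these 3 passed, with limma adjusted p from 0.871 to 0.922.

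**Figure D2:**
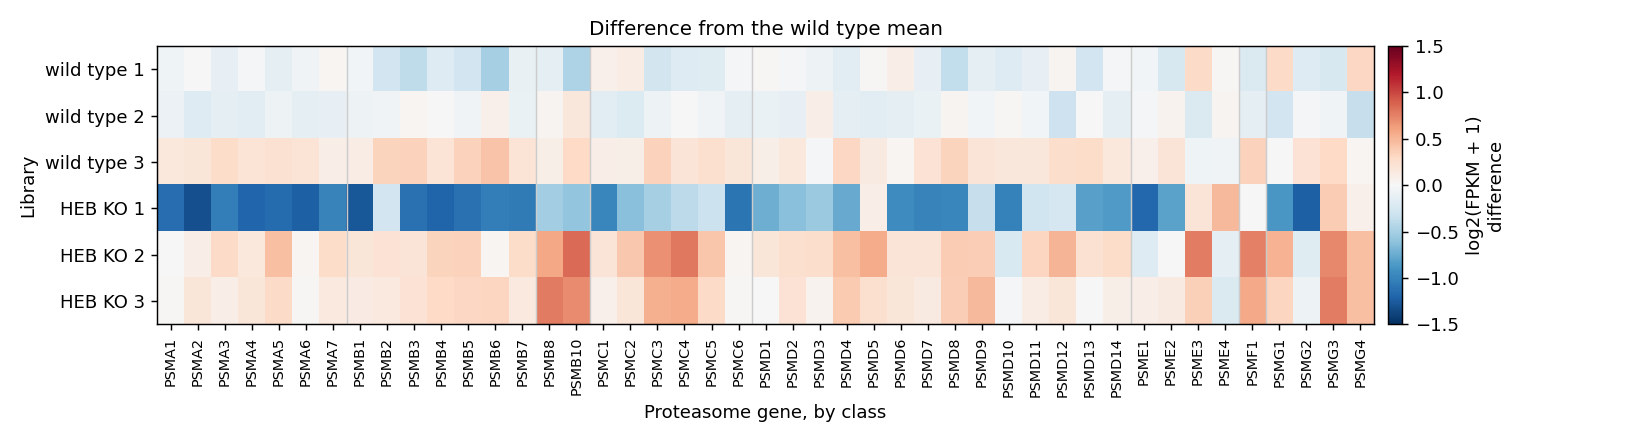
Difference of each library from the wild type mean on the log2(FPKM + 1) scale for the 45 proteasome genes tested, in columns grouped by class, with 1 row per library (red higher, blue lower). The row of HEB KO library 1 is blue through the alpha and beta rings. It is reddest at PSME4 and PSMG3, with paler red at PSME3, PSMD5 and PSMG4. HEB KO libraries 2 and 3 are mostly pale red, and deepest at PSMB8, PSMB10, PSMC3, PSMC4, PSME3, PSMF1 and PSMG3.

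Relative to the mean of HEB KO libraries 2 and 3, the level in HEB KO library 1 was 0.332 to 0.447 for the alpha ring and 0.348 to 0.711 for the beta ring. It was 0.453 to 0.619 for the ATPases, 0.387 to 0.793 for the lid and base and 0.444 to 1.61 for the activators. HEB KO library 1 was the lowest of the 6 libraries for 38 of 45 members, beside 30.2% of all genes tested, and at most 0.5 of the mean of libraries 2 and 3 for 27 of 45, beside 10.9%. In the same library, abundant genes in general were lower and long transcripts were higher. On the log2(FPKM + 1) scale its median difference from libraries 2 and 3 was 0.14 for genes with means of 1 to 25 FPKM, -0.65 for genes from 50 to 100 FPKM and -1.11 for genes from 200 FPKM up. By the longest annotated transcript it was -0.56 for 1000 to 2000 bases and 0.43 from 6000 bases up. The members lay lower than these medians, at -1.10 for the 14 members from 50 to 100 FPKM and -1.25 for the 9 members from 100 to 200 FPKM, where all genes tested had -0.82. The part that level, transcript length or RNA quality has in the low values of HEB KO library 1 was not tested.

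**Figure D3:**
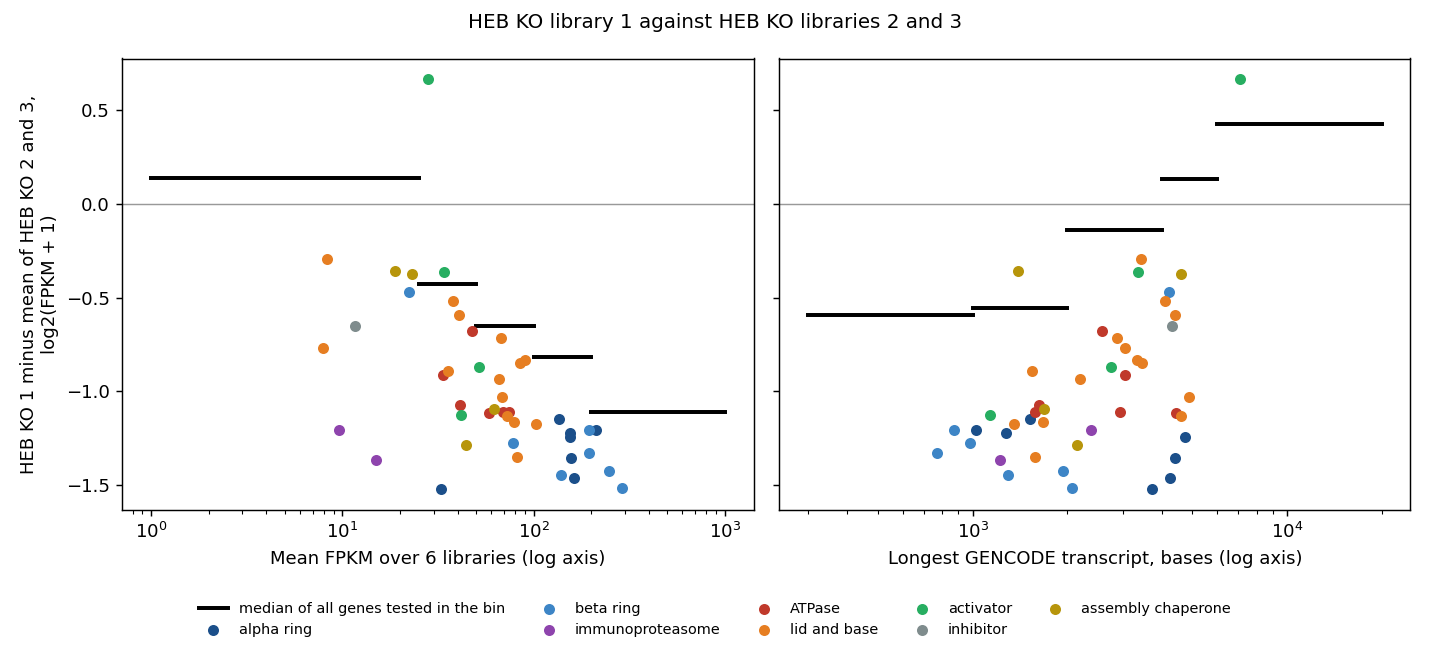
Difference of HEB KO library 1 from the mean of HEB KO libraries 2 and 3 on the log2(FPKM + 1) scale, against mean FPKM (left) and longest GENCODE transcript (right), both on log axes. Each point is 1 of the 45 proteasome genes tested and each black bar the median of all genes tested in that range. PSME4 is the single point above 0, and most other points lie under the bars.

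In the ATPase ring, which unfolds substrates, none of the 6 genes passed the test, and the genes were uneven. PSMC4 read 30.8, 35.5 and 40.7 FPKM in the wild type, against 26.7, 62.2 and 52.5 in the knockout (log2 fold change 0.32 with SE 0.33, limma adjusted p = 0.772). PSMC6, the ATPase of the highest mean, read 79.2, 73.4 and 91.8 FPKM in the wild type, against 37.5, 82.5 and 82.0 in the knockout (log2 fold change -0.35 with SE 0.34, limma adjusted p = 0.753). In PSMC4, HEB KO libraries 2 and 3 lay above all wild type libraries, whereas in PSMC6 they lay within the wild type range. PSMC3, named after its values were seen, read 50.2, 57.8 and 77.6 FPKM in the wild type, against 42.7, 98.7 and 88.3 in the knockout. Without both libraries numbered 1 the log2 fold change was 0.58 for PSMC4 (SE 0.17, limma adjusted p = 0.0989), 0.47 for PSMC3 (SE 0.19, adjusted p = 0.186) and 0.0021 for PSMC6 (SE 0.17, adjusted p = 0.995).

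None of the 14 lid and base genes passed the test either, and 5 had a positive log2 fold change. PSMD4, a ubiquitin receptor, had the highest level of the class and read 86.2, 88.4 and 121 FPKM in the wild type, against 57.3, 134 and 128 in the knockout. Its log2 fold change of 0.032 (SE 0.37) turned negative without any single library of HEB KO 2, HEB KO 3, wild type 1 or wild type 2, down to -0.18. PSMD10, encoding gankyrin, a chaperone of base assembly, read 34.9, 40.4 and 45.1 FPKM in the wild type, against 19.2, 34.0 and 39.1 in the knockout (log2 fold change -0.42 with SE 0.29, limma adjusted p = 0.654). PSMD5, another base assembly chaperone, went the other way at 7.42, 6.42 and 8.13 FPKM in the wild type, against 7.91, 11.2 and 8.76 in the knockout (log2 fold change 0.30 with SE 0.21, limma adjusted p = 0.653). The groups overlapped in both. PSMD14, the deubiquitinase of the lid, averaged 70.8 ± 7.40 FPKM in the wild type, against 66.4 ± 24.7 in the knockout (mean ± SD, n = 3 each), and the scaffold subunit PSMD1 averaged 94.8 ± 5.91 and 86.3 ± 26.7 FPKM.

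**Figure D4:**
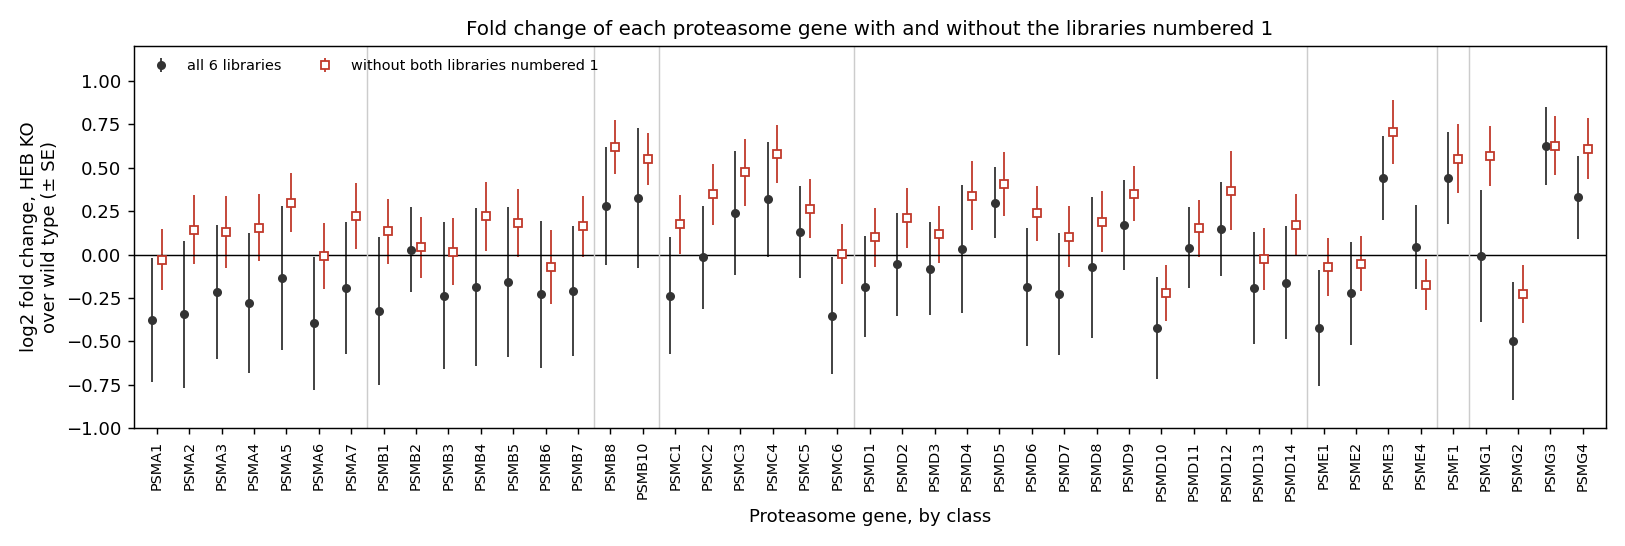
Log2 fold change of HEB KO over wild type with its SE from limma for the 45 proteasome genes tested, with all 6 libraries (filled points) and without both libraries numbered 1 (open squares). Open squares lie above filled points for all genes but PSME4 and PSMG3, the latter almost level, and 36 of 45 open squares lie above 0 beside 16 filled points.

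The activators differed from each other. PSME1 and PSME2 encode the subunits of the interferon-inducible activator. PSME1 read 44.9, 45.3 and 49.0 FPKM in the wild type, against 20.0, 40.5 and 49.6 in the knockout (log2 fold change -0.42 with SE 0.33, limma adjusted p = 0.694). PSME2 read 46.1, 56.7 and 62.3 FPKM in the wild type, against 30.8, 54.7 and 60.0 in the knockout (log2 fold change -0.22 with SE 0.30, limma adjusted p = 0.821). For PSME1 and PSME2 the values of HEB KO libraries 2 and 3 lay near or within the wild type range. PSME3, which encodes a nuclear activator that does not need ubiquitin, read 34.5, 24.1 and 26.9 FPKM in the wild type, against 32.5, 48.7 and 36.3 in the knockout (log2 fold change 0.44 with SE 0.24, limma adjusted p = 0.576). Only wild type library 1 overlapped the HEB KO values of PSME3. PSME4, a large single-chain activator linked to acetylated histones, read 27.8, 28.2 and 26.3 FPKM in the wild type, against 38.8, 24.7 and 23.3 in the knockout (log2 fold change 0.041 with SE 0.24, limma adjusted p = 0.966). PSME4 was the member whose highest value stood in HEB KO library 1, as it did for 27.5% of all genes tested, and its longest annotated transcript, of 7099 bases, was also the longest among the members tested. Without that library its log2 fold change was -0.18.

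Of the genes that build or restrain the complex, PSMG3 was the member whose groups did not overlap. PSMG3, which forms a dimer with PSMG4 in alpha ring assembly, read 12.1, 13.9 and 18.0 FPKM in the wild type, against 19.2, 24.6 and 25.3 in the knockout, a ratio of means of 1.57. It missed the threshold (log2 fold change 0.63 with SE 0.22, limma adjusted p = 0.409), and 7.72% of all genes tested were likewise higher in all 3 HEB KO libraries. Its antisense neighbour PSMG3-AS1 was at most 0.565 FPKM in any library. PSMG4, its dimer partner, read 25.3, 15.6 and 20.6 FPKM in the wild type, against 21.3, 28.0 and 27.8 in the knockout, with overlap through wild type library 1 and HEB KO library 1. PSMG2, of the other assembly dimer, read 61.9, 69.0 and 82.6 FPKM in the wild type, against 29.6, 62.0 and 66.9 in the knockout (log2 fold change -0.50 with SE 0.34, limma adjusted p = 0.651). PSMG1, its dimer partner, read 52.3, 34.7 and 42.3 FPKM in the wild type, against 22.8, 61.4 and 53.3 in the knockout. PSMF1, an inhibitor of the core particle in vitro, read 8.04, 8.55 and 12.3 FPKM in the wild type, against 9.51, 16.6 and 14.5 in the knockout (log2 fold change 0.44 with SE 0.27, limma adjusted p = 0.607). HEB KO libraries 2 and 3 lay above all wild type libraries in 21 of the 45 members, PSMG1, PSMG3, PSMG4 and PSMF1 among them, beside 18.1% of all genes tested, and below all of them in 1, PSME4, beside 25.2%.

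With limma weights estimated per library, which gave HEB KO library 1 the lowest weight of 0.134, 6 members were called, all higher in HEB KO, beside 6.53% of all genes tested called higher and 7.95% called lower. These were PSMB8, PSMC4, PSME3, PSMF1, PSMG3 and PSMG4, with log2 fold changes of 0.65, 0.57, 0.62, 0.62, 0.72 and 0.64 and adjusted p between 0.0112 and 0.0409. Wild type library 1 had the next lowest weight, 0.320, and the highest were 4.24 for HEB KO library 3 and 2.64 for wild type library 2. That setting relies mainly on libraries not numbered 1, and unevenly on those. It and the fits without the libraries numbered 1 are therefore not independent of each other.

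A ratio of genes within a library does not depend on how libraries were scaled against each other. The median of the 14 constitutive core subunits was 149.9, 149.6 and 195 FPKM in the wild type, against 72.1, 185 and 180.3 in the knockout. Divided by it, the ATPase class median was 0.298 to 0.325 in wild type and 0.460, 0.358 and 0.332 in HEB KO, above every wild type library. The median of all genes tested over the same core median was 0.0498 to 0.0687 in wild type and 0.144, 0.0514 and 0.0545 in HEB KO, so HEB KO library 1 was high for genes in general. The lid and base median was 0.400 to 0.460 in wild type and 0.537, 0.453 and 0.404 in HEB KO, so there the groups overlapped. They overlapped as well for the activators, at 0.195 to 0.265 in wild type and 0.439, 0.241 and 0.238 in HEB KO, and for the assembly chaperones, at 0.161 to 0.259 and 0.306, 0.241 and 0.225. Of the 31 members outside the constitutive core, 10 were higher relative to the core in all 3 HEB KO libraries and 1, PSMG2, was lower, beside 10.2% of all genes tested higher and 1.67% lower. The 10 were PSMB8, PSMB10, PSMC3, PSMC4, PSMC5, PSMD4, PSMD8, PSMD9, PSMF1 and PSMG3. Relative to the core median, PSMC4 went from 0.206, 0.237 and 0.209 in wild type to 0.370, 0.335 and 0.291 in HEB KO.

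No member of the immunoproteasome class passed the test. PSMB8 and PSMB10 had means of 9.54 and 14.9 FPKM, below every constitutive core subunit that passed the filter. The median of all genes tested was 9.53 to 10.4 FPKM per library, so of this class only PSMB9, with a mean of 0.537 FPKM, was low among genes in general. PSMB8, which takes the place of PSMB5, read 7.36, 8.44 and 8.69 FPKM in the wild type, against 5.35, 12.7 and 14.7 in the knockout (log2 fold change 0.28 with SE 0.34, limma adjusted p = 0.805). PSMB10, which takes the place of PSMB7, read 8.67, 13.9 and 15.3 FPKM in the wild type, against 7.86, 23.0 and 20.8 in the knockout (log2 fold change 0.32 with SE 0.40, limma adjusted p = 0.808). For PSMB8 and PSMB10, HEB KO library 1 was the lowest library and HEB KO libraries 2 and 3 were the highest. PSMB9, which takes the place of PSMB6, read 0.346, 0.164 and 0.651 FPKM in the wild type, against 0.260, 1.01 and 0.790 in the knockout and did not pass the filter. Without both libraries numbered 1 the log2 fold changes were 0.62 for PSMB8 (SE 0.15, limma adjusted p = 0.0701) and 0.55 for PSMB10 (SE 0.15, limma adjusted p = 0.0885).

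Against its constitutive counterpart, each immunoproteasome transcript was higher in all 3 HEB KO libraries. Of all genes tested, 6.16% were likewise higher in all 3 when divided by PSMB5, 7.62% when divided by PSMB6 and 8.85% when divided by PSMB7. In HEB KO library 1, less abundant genes in general stood high over abundant core genes, and the part of this in its ratios was not tested. The PSMB8 to PSMB5 ratio was 0.0647, 0.0630 and 0.0491 in wild type and 0.0842, 0.0718 and 0.0851 in HEB KO. Its means were 0.0589 ± 0.00858 and 0.0804 ± 0.00746 (SD, n = 3 each), and the exact two-sided permutation p was 0.1. The PSMB10 to PSMB7 ratio was 0.117, 0.186 and 0.166 in wild type and 0.207, 0.236 and 0.233 in HEB KO, with means of 0.156 ± 0.0358 and 0.225 ± 0.0158 (SD, n = 3 each, exact permutation p = 0.1). The PSMB9 to PSMB6 ratio was 0.00245, 0.000782 and 0.00243 in wild type and 0.00267, 0.00498 and 0.00316 in HEB KO (exact permutation p = 0.1), on PSMB9 values mostly under 1 FPKM. A p of 0.1 is the smallest that 3 libraries against 3 allow, so no ratio could pass 0.05. Adjusted over the 3 ratios by Benjamini-Hochberg it stayed 0.1. Even at the higher ratio the constitutive transcript exceeded the immunoproteasome transcript in every library.

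**Figure D5:**
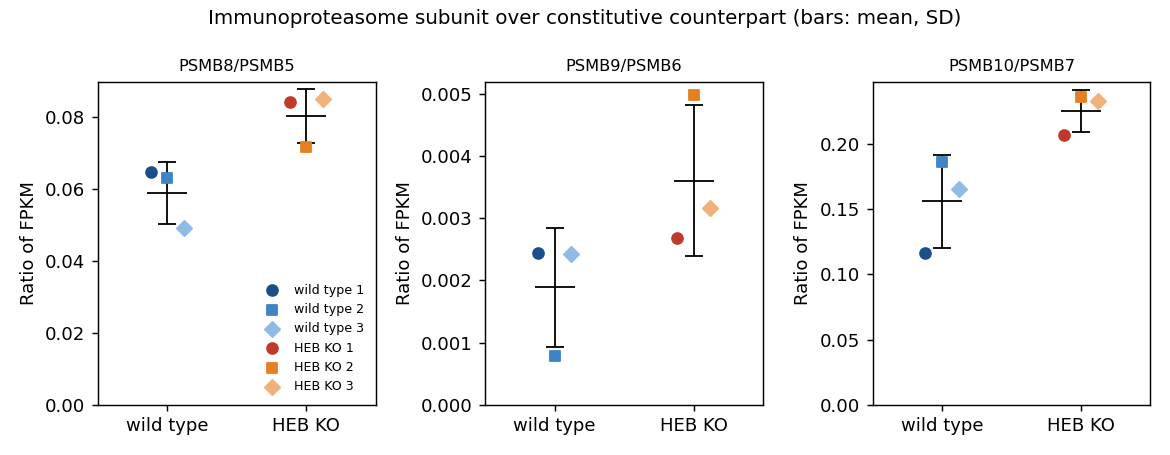
Ratio of FPKM of each immunoproteasome subunit to the constitutive subunit it replaces, with 1 point per library, the group mean as a long bar and the SD as capped bars (n = 3 each). In each of the 3 panels all HEB KO libraries lie above all wild type libraries, narrowly so for PSMB9 to PSMB6.

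PSMB8, PSMB10, PSME1 and PSME2, all interferon-inducible, carry the same letters near their start sites, shown here to set the sequence beside the values above. RefSeq promoter windows of 300 bases (250 before to 50 after the start, GRCh38.p14) were found for 42 of the 48 members, and were searched on both strands for GAAANNGAAA, the core of the interferon-stimulated response element. The windows below are written 5′ to 3′ on the gene's strand, with the match in capitals. They lie at chr6:32843998-32844297 (minus strand) for PSMB8, chr16:67936801-67937100 (minus strand) for PSMB10, chr14:24135944-24136243 (plus strand) for PSME1 and chr14:24146561-24146860 (minus strand) for PSME2.
PSMB8: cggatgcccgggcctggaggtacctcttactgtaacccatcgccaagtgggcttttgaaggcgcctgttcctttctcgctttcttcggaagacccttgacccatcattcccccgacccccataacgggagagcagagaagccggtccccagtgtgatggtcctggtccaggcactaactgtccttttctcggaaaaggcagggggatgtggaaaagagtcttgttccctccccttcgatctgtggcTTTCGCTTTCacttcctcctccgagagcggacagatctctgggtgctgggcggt
PSMB10: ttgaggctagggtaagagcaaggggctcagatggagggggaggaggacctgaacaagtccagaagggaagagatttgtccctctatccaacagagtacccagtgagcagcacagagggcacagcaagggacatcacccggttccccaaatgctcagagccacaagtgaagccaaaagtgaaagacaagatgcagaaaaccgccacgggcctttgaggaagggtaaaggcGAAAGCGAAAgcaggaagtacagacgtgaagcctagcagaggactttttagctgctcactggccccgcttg
PSME1: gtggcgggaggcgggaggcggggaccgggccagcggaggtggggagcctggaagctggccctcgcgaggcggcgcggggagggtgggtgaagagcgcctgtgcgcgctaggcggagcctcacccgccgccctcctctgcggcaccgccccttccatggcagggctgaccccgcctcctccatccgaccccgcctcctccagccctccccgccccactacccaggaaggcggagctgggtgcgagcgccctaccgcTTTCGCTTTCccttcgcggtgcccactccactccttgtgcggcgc
PSME2: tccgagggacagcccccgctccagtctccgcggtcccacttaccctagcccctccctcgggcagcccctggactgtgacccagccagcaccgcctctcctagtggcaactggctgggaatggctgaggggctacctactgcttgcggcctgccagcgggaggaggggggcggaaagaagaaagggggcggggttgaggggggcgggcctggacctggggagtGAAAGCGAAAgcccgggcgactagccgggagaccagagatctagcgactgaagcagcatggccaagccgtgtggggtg

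Each of these windows holds GAAAGCGAAA, in PSMB8 and PSME1 on the opposite strand, where it reads as TTTCGCTTTC. That exact 10-base word was read from these windows after the looser search, so finding it in them was fixed in advance. It occurs in 0.0997% of all 35116 promoter windows, a share that is no background for the genes it was read from. The looser GAAANNGAAA was found in 13.7% of member windows and in 3.57% of all windows. Among members the exact word was also found for PSMG4, and the looser form alone for PSMA4 and PSMB4. PSMB8 has a further annotated start whose window holds no match, and the PSMB9 window holds none. Of the 5 members with the exact word, PSMB8, PSMB10 and PSMG4 had HEB KO libraries 2 and 3 above all wild type libraries. The same held for 21 of the 45 members tested and for 18.1% of all genes tested. PSME1 was narrowly highest in HEB KO library 3 (49.6 against 49.0 FPKM in wild type library 3) but lower in HEB KO library 2, at 40.5. PSME2 was highest in wild type library 3. A match is a description of letters, not of a bound factor. The E-box CANNTG, the general motif of E proteins such as HEB, was found in 68.6% of the 51 member windows and in 68.7% of all windows. Its form CAGCTG was found in 5 member windows, those of PSMB11, PSMD3, PSMD8, PSMD9 and PSME4, which is 9.80% beside 17.9% of all windows. The motif TGACNNNGC, core of the antioxidant response element read by NFE2L1 and NFE2L2, was found in 29.4% of member windows and 13.3% of all windows.

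Partners of the proteasome outside the naming pattern did not pass the test with all 6 libraries weighted equally. None of 10 subunits and associated factors, 10 transcriptional control genes, 17 ubiquitin and shuttle genes or 10 interferon-linked antigen processing genes tested passed in either direction. In that fit only 0.240% of all genes tested were called, so a count of 0 in lists of this size sets them apart from no other genes. The median log2 fold changes of the lists were -0.064, 0.034, -0.059 and -0.095 in that order. SHFM1, a small lid subunit, read 220.0, 186 and 224 FPKM in the wild type, against 80.8, 180.3 and 201 in the knockout, and POMP, the chaperone of core maturation, read 80.1, 75.7 and 97.0 FPKM in the wild type, against 37.0, 103 and 104 in the knockout. Both had HEB KO library 1 as their lowest, as did 30.2% of all genes tested. In the same list KIAA0368 and TXNL1 were also lowest there, whereas ADRM1, PAAF1, ZFAND5 and UBLCP1 were not. UCHL5 and USP14 were highest in that library, at 16.0 and 24.7 FPKM. With library weights, ADRM1 (limma adjusted p = 0.0286) and UBLCP1 (limma adjusted p = 0.0483), of the 10 subunits and associated factors, were called higher. NFE2L1 (limma adjusted p = 0.0317), of the 10 transcriptional control genes, was called lower. In that setting 6.53% of all genes tested were called higher and 7.95% lower. ADRM1, a ubiquitin receptor named after its values were seen, averaged 29.2 ± 13.0 FPKM in the wild type, against 50.5 ± 18.4 in the knockout (limma adjusted p = 0.543). NFE2L1, the transcription factor that raises proteasome genes when the proteasome is impaired, read 61.6, 78.8 and 53.9 FPKM in the wild type, against 58.4, 46.0 and 44.2 in the knockout (log2 fold change -0.37 with SE 0.24, limma adjusted p = 0.637). SIAH1, a ubiquitin ligase gene, averaged 28.5 ± 2.46 FPKM in the wild type, against 23.2 ± 3.83 in the knockout. Among ubiquitin genes, RPS27A averaged 1452 ± 137 FPKM in the wild type, against 1039.5 ± 444 in the knockout, and UBB 364 ± 96.2 and 357 ± 111 FPKM.

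The antigen processing genes that share interferon control with PSMB8 to PSMB10 gave mixed values. B2M, the light chain of class I molecules, read 158, 102 and 117 FPKM in the wild type, against 49.7, 48.6 and 60.3 in the knockout, lower in all 3 HEB KO libraries (log2 fold change -1.21 with SE 0.25, limma adjusted p = 0.181), as were 11.8% of all genes tested. B2M was called lower without both libraries numbered 1 (log2 fold change -0.999, limma adjusted p = 0.0308), where 3.71% of all genes tested were called in either direction. With library weights B2M was also called lower (limma adjusted p = 0.00755), as were 7.95% of all genes tested. TAP1, a peptide transporter gene that neighbours PSMB9, read 8.12, 8.41 and 5.11 FPKM in the wild type, against 6.40, 6.94 and 6.80 in the knockout. IRF1, a factor that binds the interferon-stimulated response element, read 1.19, 0.776 and 0.917 FPKM in the wild type, against 1.38, 1.54 and 1.24 in the knockout, higher in all 3 HEB KO libraries at a low level, as were 7.72% of all genes tested (log2 fold change 0.29, limma adjusted p = 0.655).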

How the data were processed

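Total RNA from 3 wild type and 3 HEB KO libraries of H1 cells was depleted of ribosomal RNA and made into stranded libraries, per the labels' protocols. Per the submitters' processing notes, the tools were TopHat2 2.1.0 and Bowtie2 2.2.6 and the build hg19. The deposited table gives 1 value per gene and library. Its unit was read from the values as FPKM made by the authors, while the sources used here do not name the quantification tool. A date stood in for the symbol in 28 of 23619 entries, which were left out.

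On log2(FPKM + 1), limma 3.58.1 (R 4.3.3, trend over intensity) compared the groups for the 12937 genes that reached 1 FPKM in 3 or more libraries, with Benjamini-Hochberg adjusted p under 0.05 as a call. The fit was tested on simulated data. Fold changes on this scale understate low genes. Groups and numbers came from the labels. Named were all immunoproteasome and activator genes and, per other class, the member of the highest mean and the 2 of the largest fold change, with PSMF1 and PSMG as 1 class. Others were named after their values were seen. Members, lists and settings were chosen with earlier results of these data known. For partner lists, called genes or the 2 of the highest mean were named. One gene that this rule selects is not reported here.

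Promoter windows came from RefSeq GRCh38.p14 and transcript lengths from the longest GENCODE transcript of a symbol. That build differs from hg19, and no expression value was placed by coordinates. Marker lists were read as levels. Summed over a list, fibroblast and mesenchyme markers gave 222 to 292 FPKM in wild type and 229 to 350.4 in HEB KO, neural 36.5 to 44.0 and 32.9 to 49.7, endoderm 0.168 to 0.429 and 0.157 to 2.09, mesoderm 2.74 to 6.23 and 1.02 to 1.72, and trophoblast 0.693 to 1.08 and 1.44 to 4.17. Their part in the results was not tested.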

Additional observations from a re-analysis of the deposited data

How the results depend on the processing

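Against 31 genes called among all tested, keeping low genes gave 11, raising the filter to 5 FPKM gave 18, weighting libraries gave 1874, leaving out both libraries numbered 1 gave 480, and the replicate block gave 10. The count was 7 to 76 with single libraries left out. The highest, 76, came without HEB KO library 1. Members called were 0 in every setting but library weights, which gave 6. The median log2 fold change of all genes tested, -0.043, was -0.11 with the filter at 5 FPKM, -0.0026 with trimmed mean of M values scaling, -0.0070 with library weights, -0.011 without both libraries numbered 1 and -0.075 to -0.0063 with single libraries left out. That of the 45 members was -0.36 to 0.21 with single libraries left out.

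TCF12 kept its direction, at -2.60 to -2.10 with single libraries left out, but missed the threshold at -2.31 with no filter and at -2.31 with the replicate block, and also when any single library but HEB KO library 1 was left out (adjusted p 0.126 to 0.193). Over all settings its limma adjusted p ranged from 2.05e-05 to 0.193. The deviations of same-numbered libraries correlated at 0.262, -0.0399 and 0.269, and not every library correlated best with its own number, so the libraries were taken to share only a number. In the block fit no member was called.

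Among the members named by the stated rule, signs of those that missed the test turned as follows. Other members turned as well and are not listed here. With library weights the log2 fold change was 0.0081 for PSME2, -0.19 for PSME4, 0.21 for PSMA7, 0.037 for PSMA6, 0.0040 for PSMA1, 0.24 for PSMB4, 0.13 for PSMB1, 0.10 for PSMB3 and 0.043 for PSMC6. Without both libraries numbered 1 it was -0.17 for PSME4, 0.22 for PSMA7, 0.22 for PSMB4, 0.13 for PSMB1, 0.017 for PSMB3 and 0.0021 for PSMC6. With quantile normalization it was 0.022 for PSMA7 and 0.036 for PSMB4. With single libraries left out the ranges were -0.40 to 0.068 for PSME2, -0.18 to 0.17 for PSME4, -0.43 to 0.21 for PSMA7, -0.61 to 0.020 for PSMA6, -0.58 to 0.0044 for PSMA1, -0.45 to 0.32 for PSMB4, -0.58 to 0.15 for PSMB1, -0.46 to 0.21 for PSMB3, -0.54 to 0.020 for PSMC6 and -0.18 to 0.42 for PSMD4. Other causes were not tested, and the table holds no counts, so no count-based test was run and the precision of low values is unknown.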
